A study of Mus musculus with 12 samples.

Results

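Jmjd1c knockout (KO) and wild-type (WT) follicular B cells were compared after 2 h of anti-IgM, which engages and clusters the B cell receptor. All libraries labelled 2 h were used: 3 of genotype Jmjd1c KO and 3 of genotype Jmjd1c WT, 6 of the 12 libraries in the series. Follicular B cells, which recirculate through the follicles of spleen and lymph nodes, had been sorted from mouse spleens, and polyadenylated RNA was sequenced. The other 6 libraries came from the same numbered samples at 0 h of anti-IgM and enter only where a difference at 2 h is set beside that at 0 h. Both genotypes at 2 h had the same treatment. The strain, age, knockout allele and any Cre driver were not given in the sources used here. Replicates 1, 2 and 3 each carry a batch label shared by a KO and a WT library, and this number was used as a block, so each KO library was compared with the WT library of its own batch. The labels do not state in words that the replicates are separate animals. The p-values measure the spread between these samples, moderated by a spread shared over all genes.

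JMJD1C is a JmjC-domain histone demethylase, related to enzymes that remove methyl groups from lysine 9 of histone H3, a mark of silent chromatin. Cross-linking of the B cell receptor activates kinases and calcium entry, and then transcription factors of the NFAT, NF-kB, AP-1 and EGR families, which induce immediate early genes, cytokines and surface activation molecules within hours. In follicular B cells this response precedes growth, entry into the cell cycle and, with help from T cells, differentiation into germinal centre or antibody-secreting cells. The title of the series places JMJD1C in the control of autoimmunity and antibody production.

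The 6 libraries were not alike. Total counts ranged from 5666013 to 14153396, and a gene with no count could hold up to 3, which is 0.165 to 0.945 CPM (counts scaled to a common library size with TMM factors). Such limits cover counting error only. Rn45s, the 45S ribosomal RNA precursor, took 24.8%, 15.0% and 0.418% of the counts in WT replicates 1, 2 and 3, and 52.3%, 15.5% and 0.464% in KO replicates 1, 2 and 3. The first principal component, which held 74.9% of the variance, placed KO replicate 1 at -89.2 and WT replicate 1 at -20.7. The replicate 2 libraries lay at -2.09 (WT) and -2.72 (KO), and the replicate 3 libraries apart from these at 57.8 (WT) and 56.9 (KO). Mki67, a protein of dividing cells, was at 124, 78.3 and 11.04 CPM in WT and at 494, 86.2 and 11.3 CPM in KO. The 10 measured neutrophil markers summed to 137, 105 and 25.6 CPM in WT and to 543, 87.9 and 32.5 CPM in KO. The 10 measured markers of follicular B cells summed to 3230 to 4390 CPM in WT and 2900 to 4820 CPM in KO, so these ranges overlapped and the labelled cell type was well represented. The replicate 1 libraries held 9792 (WT) and 1828 (KO) counts of Xist, against 11 to 443 in the other libraries, and 89 and 142 counts of Y-linked genes, against 2539 to 7600, so the batch number also goes with sex in both genotypes. At 0 h the replicate 1 libraries held 6 (WT) and 13 (KO) Y-linked counts. High Xist and some Y-linked counts thus stood together in the replicate 1 libraries at 2 h. The replicate 2 libraries at 2 h held 288 (WT) and 443 (KO) Xist counts beside 2539 and 3555 Y-linked counts. Replicate 3 held 11 (WT) and 21 (KO) Xist counts at 2 h. At 0 h replicate 2 held 343 (WT) and 286 (KO) Xist counts. Whether the libraries of replicates 1 and 2 hold RNA of other samples or cells was not tested. Every value over 3 replicates includes the replicate 1 libraries, and the comparisons are therefore also given for replicates 2 and 3 alone. The replicate 2 libraries remain in the latter.

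**Figure D1:**
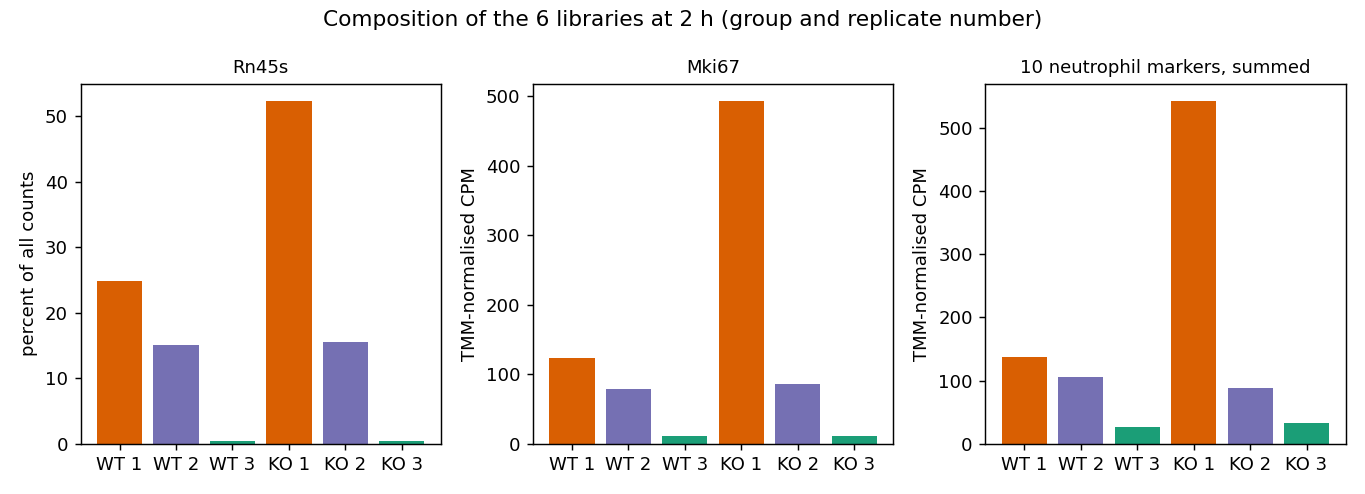
Share of counts on Rn45s (percent), and levels of Mki67 and of 10 summed neutrophil markers (TMM-normalised CPM), in each of the 6 libraries at 2 h, labelled by genotype and replicate number. KO replicate 1 is the highest bar in all 3 panels (52.3%, 494 CPM and 543 CPM). The WT and KO libraries lie close to each other within replicate 2 and within replicate 3, and replicate 3 is lower than replicate 2 in every panel.

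The targeted gene was lower in every KO library. Jmjd1c (chr10:67096351-67256326, GRCm38.p6) was at 289, 263 and 240 CPM in WT replicates 1 to 3 and at 194, 189 and 177 CPM in KO replicates 1 to 3. The groups did not overlap, and all 3 pairs went the same way, but most of the WT level remained in each KO library. The difference was -0.50 ± 0.13 (log2, SE), with an adjusted p of 0.738 in edgeR's quasi-likelihood test, so it was not called over 3 replicates. In replicates 2 and 3 alone it was -0.45 ± 0.08, with an adjusted p of 0.0298 in the same edgeR test. Counts per whole gene do not show which exons were read, and which part of the gene was deleted was not given in the sources used here; this level checks the direction of the labels and no more.

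Over all 3 replicates no gene passed an adjusted p of 0.05. Of 11656 genes tested with edgeR, 0 were called (0% of those tested), the smallest adjusted p being 0.575 for B3gnt7. At an unadjusted p under 0.05 there were 543 genes, 4.66% of those tested, of which 376 (3.23%) were higher and 167 (1.43%) lower in KO. All 3 KO libraries lay above all 3 WT libraries for 575 genes (4.93%) and below them for 415 (3.56%), together 8.49% of the genes tested. The median difference over all genes tested was 0.01. Other fits of all 3 replicates called 0 to 57 genes: DESeq2 with the same block called 2, B3gnt7 and Armc9, and limma-voom with sample quality weights called 57, of which 22 were higher.

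Replicates 2 and 3 alone gave 60 called genes of 11879 tested (0.505%), 25 higher (0.21%) and 35 lower (0.295%) in KO. At an unadjusted p under 0.05 there were 1350 genes in this fit, 11.4% of those tested. With only 4 libraries, its SEs and p-values rest largely on the spread shared over all genes. An SE can therefore be smaller than the gap between the pairs of replicates 2 and 3. The called differences were modest: the median size was 0.59 (log2) among the higher and 0.72 among the lower genes, and 14 of the 60 exceeded a fold change of 2. In replicate 1, whose libraries did not enter this fit, 39 of the 60 (65%) differed in the same direction and 21 in the opposite direction. Over all genes tested, 56.5% had the same sign in replicate 1 as in replicates 2 and 3. Of the 60 genes, 21 did not overlap between the 3 KO and 3 WT libraries, 7 of them higher and 14 lower, beside 8.49% of all genes tested, but 4 of the 6 libraries that decide the overlap also chose these genes. Without the replicate block this 4-library fit called 0 genes, with 137 at an unadjusted p under 0.05, and with the 0 h libraries added in a 10-library fit 16 of the 60 were called.

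Among the genes lower in KO, B3gnt7 had the smallest p-value in the edgeR test of all 3 replicates. It encodes a glycosyltransferase that extends sugar chains with N-acetylglucosamine. Its level was 62.7, 88.5 and 42.7 CPM in WT and 27.4, 39.1 and 20.9 CPM in KO. Every KO library lay below every WT library, and the pairs differed by -1.19, -1.18 and -1.03. The difference was -1.13 ± 0.12 (log2) over 3 replicates and -1.10 ± 0.09 in replicates 2 and 3 alone, where the edgeR adjusted p was 0.000248. Armc9, an armadillo-repeat protein of the base of cilia, is the neighbouring gene on chromosome 1 and was also lower. Levels were 50.3, 53.3 and 48.9 CPM in WT and 13.2, 25.7 and 26.2 CPM in KO, where replicate 1 was the lowest. The difference was -1.22 ± 0.21 over 3 replicates and -0.96 ± 0.09 in replicates 2 and 3, with an edgeR adjusted p of 0.000664 in the latter. Armc9 lies at chr1:86154729-86278284 and B3gnt7 at chr1:86303221-86307305, so both differences fall within 1 stretch of the chromosome.

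Sdc1 encodes syndecan-1 (CD138), a heparan sulphate proteoglycan used as a surface marker of plasma cells. Its level was 73.0, 45.5 and 61.5 CPM in WT and 31.9, 26.4 and 40.1 CPM in KO, with no overlap. The difference was -0.85 ± 0.15 over 3 replicates and -0.68 ± 0.09 in replicates 2 and 3, where the edgeR adjusted p was 0.00848. No other gene of the plasma cell programme was called. Igj, the joining chain of secreted antibody, was at 20.4, 28.4 and 54.7 CPM in WT and at 127, 26.9 and 103 CPM in KO, with the groups overlapping. Mzb1, a chaperone of antibody secretion also used as a marker of marginal zone B cells, was at 40.0, 26.3 and 47.2 CPM in WT and 69.1, 30.0 and 65.3 CPM in KO. Prdm1, the transcription factor that drives plasma cell differentiation, was at 20.04, 20.9 and 31.2 CPM in WT and 14.5, 18.1 and 25.3 CPM in KO. Of the 16 tested genes of this programme, 2 were higher and 1 was lower at an unadjusted p under 0.05. Over all genes tested 3.23% were higher and 1.43% lower, and the list's median difference was -0.04. In replicates 2 and 3, 2 were higher and 3 lower, beside 6.04% and 5.33% of all genes, and the median was 0.01. In the bulk samples, fewer cells of a type and less RNA per cell cannot be told apart.

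The promoters of B3gnt7 and Armc9 are shown because these neighbours were lower in the KO library of every pair. Each is the stretch of 250 bases before a transcript start in RefSeq (GRCm38.p6, plus strand, 5′ to 3′), chr1:86302971-86303220 for B3gnt7 and chr1:86154530-86154779 for Armc9. For B3gnt7 this start is the first base of the gene, and for Armc9 it lies 51 bases downstream of the gene's first annotated base, so the end of that window is inside the gene. Of the 34 genes named from the 3-replicate and 2-replicate comparisons, 19 had an entry under their symbol. Capitals mark matches, on either strand, to the motifs of AP-1 (TGANTCA), STAT factors (TTCNNNGAA), MYC and related E-box factors (CACGTG) and EGR factors (GCGNGGGCG), and no matches overlapped.
B3gnt7: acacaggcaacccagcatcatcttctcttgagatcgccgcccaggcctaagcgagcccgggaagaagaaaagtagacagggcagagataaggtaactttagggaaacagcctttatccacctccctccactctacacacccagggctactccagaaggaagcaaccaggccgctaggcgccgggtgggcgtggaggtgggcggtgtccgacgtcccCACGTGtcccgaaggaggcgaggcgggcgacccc
Armc9: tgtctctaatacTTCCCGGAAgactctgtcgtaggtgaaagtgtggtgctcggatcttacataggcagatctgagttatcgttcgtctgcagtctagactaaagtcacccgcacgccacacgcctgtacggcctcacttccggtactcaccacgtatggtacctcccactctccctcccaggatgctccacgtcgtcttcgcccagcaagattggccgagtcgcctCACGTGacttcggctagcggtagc
Both windows held 1 CACGTG match, beginning 34 bases before the transcript start used for B3gnt7 and 24 bases before that used for Armc9, and 6.02% of all 32851 promoter windows of this length held that motif. Armc9 also held 1 STAT match, 238 bases before the same transcript start, a motif found in 7.02% of the windows. Neither window held the AP-1 or the EGR pattern, which occurred in 6.75% and 4.7% of the windows. A match describes the letters of the window and is no evidence of binding.

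H60b, a ligand of the NKG2D receptor of NK and T cells, was at 23.5, 33.5 and 30.8 CPM in WT and 5.36, 13.8 and 17.4 CPM in KO. The groups did not overlap, and the difference was -1.28 ± 0.24 over 3 replicates and -1.004 ± 0.129 in replicates 2 and 3, with an edgeR adjusted p of 0.00789. Gad1, the decarboxylase that makes GABA from glutamate, was at 35.4, 33.9 and 35.6 CPM in WT, a narrow range, and at 10.1, 20.5 and 19.4 CPM in KO. Faah, which breaks down fatty acid amides such as anandamide, was at 21.1, 24.7 and 28.2 CPM in WT and 5.68, 13.7 and 17.4 CPM in KO. In all 3 of these genes KO replicate 1 was the lowest library, and their differences in replicates 2 and 3 alone, -1.004, -0.81 and -0.75, were smaller than over 3 replicates. Pmepa1, a membrane protein that restrains TGF-beta signalling, was 31.9, 25.1 and 18.7 CPM in WT and 18.0, 17.1 and 10.8 CPM in KO, and its difference was nearly the same in both fits (-0.72 ± 0.15 and -0.68 ± 0.13). Vps37b, a subunit of the ESCRT-I sorting complex, fell in replicates 2 and 3 by 0.59 ± 0.08 (edgeR adjusted p = 0.00872), from 331 and 232 CPM to 211 and 159 CPM, and its difference over 3 replicates was -0.55 ± 0.13. Rbl2, the pocket protein p130 that holds cells in quiescence, was at 75.9, 58.1 and 64.5 CPM in WT and 43.2, 40.9 and 48.4 CPM in KO, with a difference of -0.57 ± 0.13 over 3 replicates. It was called in replicates 2 and 3, at -0.45 ± 0.08 with an edgeR adjusted p of 0.0361. The remaining genes of the 12 lower ones with the smallest p among genes without overlap were Btrc, the substrate receptor of a ubiquitin ligase for IkB and beta-catenin, the kinase gene Tnik, and Sidt1. Their differences were -0.74, -0.63 and -0.85 over 3 replicates, and none of the 3 was called in replicates 2 and 3.

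Lmo2, a LIM-domain adaptor of haematopoietic transcription factor complexes that is also a marker of germinal centre B cells, had the smallest p over 3 replicates among the higher genes whose groups did not overlap. It was at 74.8, 58.1 and 62.4 CPM in WT and 163, 98.3 and 84.6 CPM in KO, with KO replicate 1 the highest. The difference was 0.77 ± 0.16 over 3 replicates and 0.59 ± 0.09 in replicates 2 and 3, where the edgeR adjusted p was 0.0168. Cd69, an early activation antigen that opposes the egress receptor S1PR1, was at 107, 121 and 100 CPM in WT and 152, 177 and 138 CPM in KO. The 3 pairs differed by 0.51, 0.55 and 0.46, nearly the same size in each batch, and the gene was called in replicates 2 and 3 with an edgeR adjusted p of 0.0184. Cd36, a scavenger receptor that is higher on marginal zone than on follicular B cells, was low, at 3.46, 1.73 and 5.73 CPM in WT and 5.99, 7.83 and 12.1 CPM in KO. Its difference was 1.31 ± 0.33 over 3 replicates and 1.37 ± 0.24 in replicates 2 and 3, with an edgeR adjusted p of 0.032. The sum of 9 marginal zone markers was 815 to 987 CPM in WT and 635 to 1030 CPM in KO. Of the 8 tested, Cd36 included, 3 were higher at an unadjusted p under 0.05 over 3 replicates, beside 3.23% of all genes, and 4 in replicates 2 and 3, beside 6.04%, with medians of 0.10 and 0.17. The part of marginal zone cells in the Cd36 difference was not tested. Pxdc1 was called in replicates 2 and 3 too, at 42.2 and 61.3 CPM in WT and 76.1 and 77.7 CPM in KO.

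Rgs1 and Rgs2, which switch off G proteins behind chemokine and other receptors, were both called higher in replicates 2 and 3. Rgs1, which shortens signalling by chemokine receptors, was at 21.1, 14.0 and 7.54 CPM in WT and 60.6, 32.5 and 12.3 CPM in KO. Batches differed in level in both genotypes, so the groups overlapped, but KO was the higher library of each pair, by 1.52, 1.21 and 0.70. The blocked difference was 1.15 ± 0.19 over 3 replicates and 0.97 ± 0.15 in replicates 2 and 3 (edgeR adjusted p = 0.0196). Rgs2 was at 118, 92.0 and 87.4 CPM in WT and 143, 163 and 119 CPM in KO. Its difference was 0.52 ± 0.15 over 3 replicates and 0.63 ± 0.10 in replicates 2 and 3, with an edgeR adjusted p of 0.0168. B3gnt7, Armc9, H60b, Rgs1 and the transcript 9530052E02Rik were the 5 genes called in edgeR with each choice of 2 of the 3 pairs, the last being outside the naming rule and named after its values were seen. These fits share libraries and are not independent of each other.

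**Figure D2:**
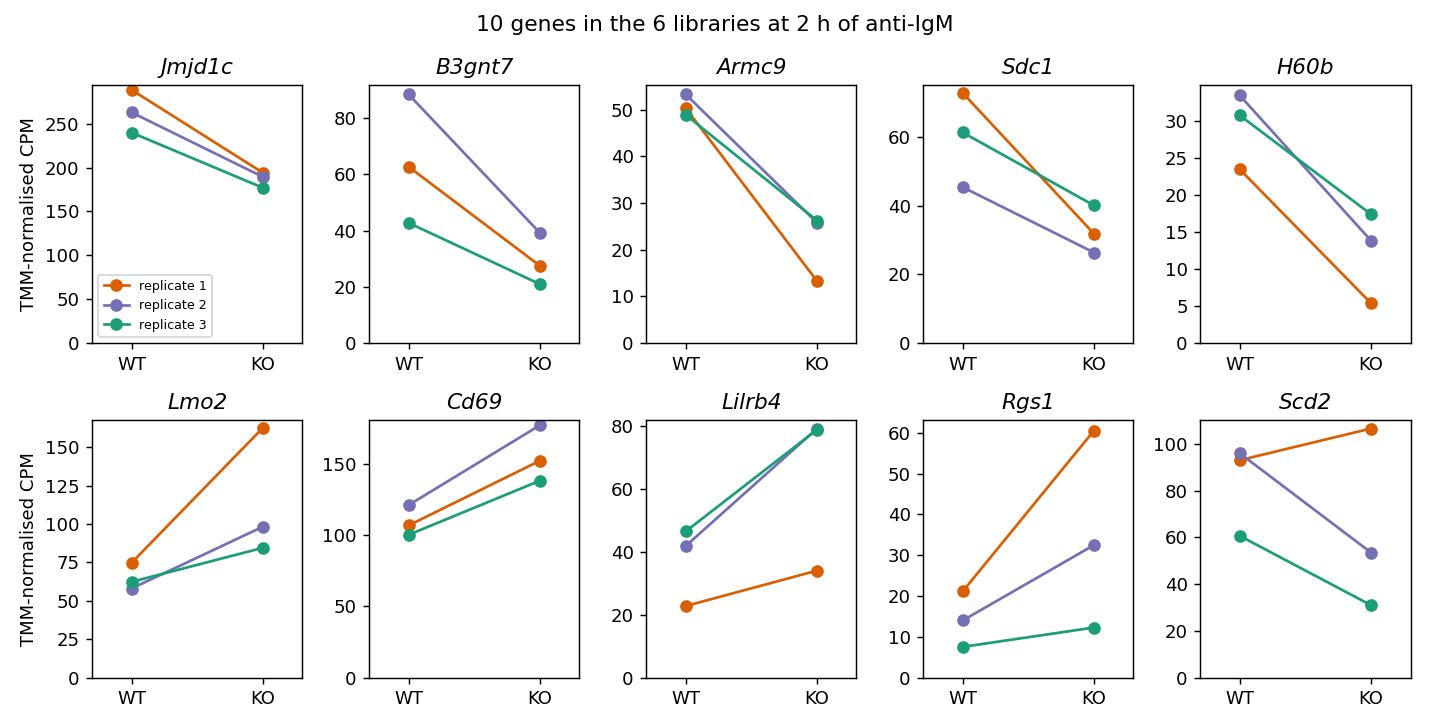
Levels of 10 genes (TMM-normalised CPM, linear axes from 0) in the WT and KO library of each replicate at 2 h, joined by a line within a replicate. Jmjd1c, B3gnt7, Armc9, Sdc1 and H60b are lower and Lmo2, Cd69, Lilrb4 and Rgs1 higher in the KO library of all 3 replicates, whereas Scd2 is lower in KO in replicates 2 and 3 and higher in replicate 1.

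Some called genes also differed between 2 h and 0 h in WT cells. The direction was that of KO against WT in some and the opposite in others. The share of all genes that anti-IgM moved in WT cells was not counted here. The 2 comparisons share the WT libraries at 2 h, so the values are set side by side and no relation between them is drawn. Every WT response given here covers all 3 replicates, with no replicate block, so the pairing of 0 h and 2 h was not used. It was not fitted for replicates 2 and 3 alone. WT replicate 1 held 1.09% Rn45s at 0 h and 24.8% at 2 h. Lilrb4 and Gp49a encode paired immunoglobulin-like receptors of the gp49 family, the first inhibitory. Lilrb4 was at 22.8, 41.9 and 46.5 CPM in WT and 34.1, 79.3 and 78.9 CPM in KO, and Gp49a at 10.3, 22.96 and 19.3 CPM in WT and 17.4, 41.2 and 35.5 CPM in KO. In both, replicate 1 was the lowest library of its genotype and KO the higher library of each pair. The differences were 0.77 ± 0.13 and 0.83 ± 0.13 over 3 replicates. In replicates 2 and 3 the KO levels were higher by 0.83 ± 0.08 and 0.87 ± 0.10 (edgeR adjusted p of 0.000664 and 0.00402). Over all 3 replicates, WT levels at 2 h exceeded those at 0 h by 2.34 and 2.08 (edgeR adjusted p of 0.00134 and 0.00986). Lilrb4 and Gp49a are near-identical neighbours on chromosome 10 (chr10:51490898-51496613 and chr10:51480612-51486329), the counting could split their reads, and they may be 1 signal. Ccl4, a chemokine that draws T cells, was at 19.1, 39.6 and 23.3 CPM in WT and 54.6, 65.1 and 35.6 CPM in KO, its difference was 0.92 ± 0.19 over 3 replicates and 0.67 ± 0.09 in replicates 2 and 3 (edgeR adjusted p = 0.00872), and its WT response was 2.86 (edgeR adjusted p = 0.000873). Adora2a, an adenosine receptor, was called higher in replicates 2 and 3 by 0.87 ± 0.12 (edgeR adjusted p = 0.00977), with 0.21 in the replicate 1 pair and 0.70 ± 0.19 over 3 replicates. Its WT response was 1.10 (edgeR adjusted p = 0.0134).

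Fcgr2b, the inhibitory Fc receptor that dampens B cell receptor signals when antigen is bound to IgG, was at 40.3 and 57.1 CPM in WT and 63.3 and 79.6 CPM in KO in replicates 2 and 3. In replicate 1 the levels were 64.3 CPM in WT and 59.6 CPM in KO, so the direction was not shared. The difference was 0.55 ± 0.08 in replicates 2 and 3 (edgeR adjusted p = 0.0149) and 0.35 ± 0.17 over all 3. The WT response of Fcgr2b to anti-IgM was -1.31 (edgeR adjusted p = 0.000884), opposite to its KO difference in replicates 2 and 3. Cd44, the hyaluronan receptor that rises on activated lymphocytes, was called lower in replicates 2 and 3, with a difference of -0.58 ± 0.08, from 121 and 88.5 CPM in WT to 82.9 and 57.5 CPM in KO, with an edgeR adjusted p of 0.00872. In replicate 1 its levels were 78.6 CPM in WT and 75.4 CPM in KO, and over 3 replicates the difference was -0.42 ± 0.15. The WT response of Cd44 was 0.82 (edgeR adjusted p = 0.022), also opposite to its KO difference. Of the 17 tested surface activation molecules, Cd69 was called higher and Cd44 lower in replicates 2 and 3, where 0.505% of all genes were called. At an unadjusted p under 0.05, 5 were higher and 1 lower, beside 6.04% and 5.33% of all genes, and the list's median was -0.00155 in those replicates, beside -0.0029 over all genes tested.

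Other called genes went opposite ways in replicate 1 and in the other replicates. Scd2, a fatty acid desaturase, was at 96.0 and 60.7 CPM in WT and 53.5 and 31.0 CPM in KO in replicates 2 and 3 (edgeR adjusted p = 0.000492), and in replicate 1 the WT level was 93.0 CPM and the KO level 107 CPM. Ccnd2, the D-type cyclin that B cell receptor signals induce, was at 206 and 142 CPM in WT and 125 and 54.1 CPM in KO in replicates 2 and 3 (edgeR adjusted p = 0.00416), and in replicate 1 the WT level was 86.5 CPM and the KO level 132 CPM. The differences of Scd2 and Ccnd2 were -0.90 and -1.06 in replicates 2 and 3, their pair differences in replicate 1 were 0.20 and 0.61, and over 3 replicates they were -0.55 ± 0.24 and -0.53 ± 0.36. Fosl2, an AP-1 subunit, and Nr4a2, an orphan nuclear receptor, both immediate early genes, were lower by -0.72 and -0.72 in replicates 2 and 3 (edgeR adjusted p of 0.0143 and 0.0305) and differed by 0.67 and 0.24 in replicate 1. Over 3 replicates their differences were -0.26 and -0.42. Of the 26 tested immediate early factors these 2 were called, beside 0.505% of all genes, and the list's median difference was -0.02 in replicates 2 and 3 and 0.01 over 3 replicates.

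In other called genes single libraries stood out. Rab6b, a small GTPase of Golgi traffic, was at 9.54, 0.722 and 0.14 CPM in WT and 1.89, 18.3 and 1.54 CPM in KO, so KO replicate 2 was the highest library, WT replicate 1 the next, and the replicate 1 pair went the other way. Its difference of 4.35 ± 0.41 in replicates 2 and 3 became 1.66 ± 1.29 over 3 replicates. The WT side of the former rests on 5 counts in replicate 2 and 2 counts in replicate 3, near the floor. Inppl1, the inositol phosphatase SHIP2, was at 21.6, 14.2 and 51.9 CPM in WT and 17.4, 11.7 and 14.9 CPM in KO. Its call in replicates 2 and 3 (-1.30 ± 0.24, edgeR adjusted p = 0.0382) stands beside the high level of WT replicate 3: the pairs differed by -0.31, -0.27 and -1.79, and the difference over 3 replicates was -0.88 ± 0.33.

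**Figure D3:**
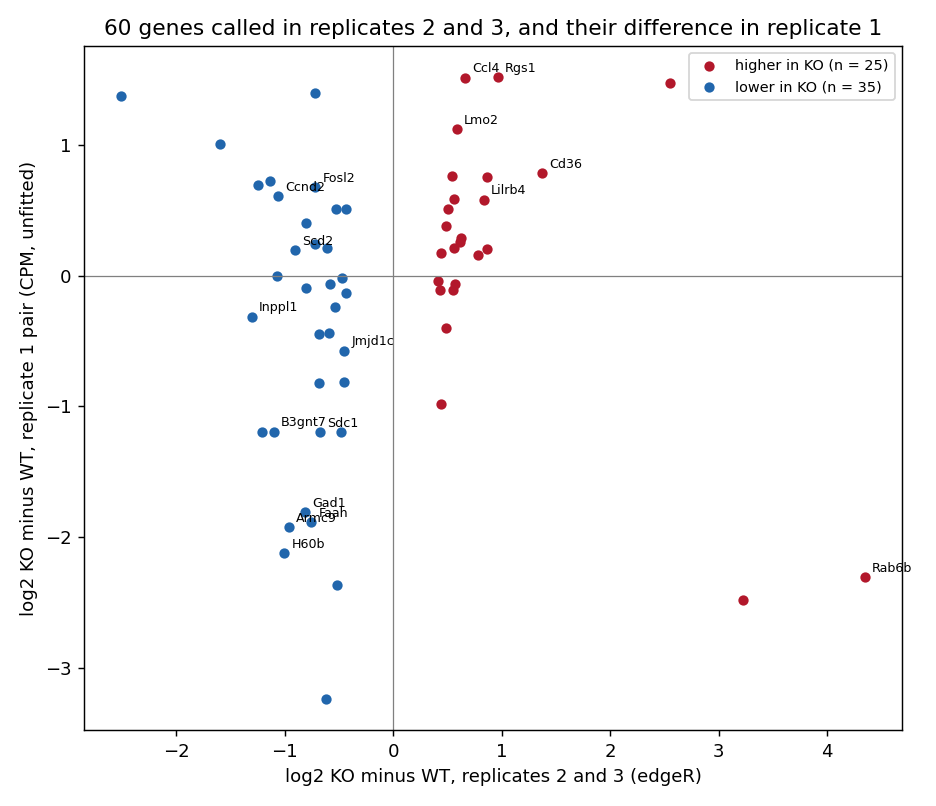
Difference between KO and WT (log2) of the 60 genes called in replicates 2 and 3, with the fitted difference in those replicates on the horizontal axis and the unfitted difference of the replicate 1 pair on the vertical axis. Red points are the 25 higher and blue points the 35 lower genes; 39 points lie on the same side of 0 on both axes, and 21, among them Scd2 and Rab6b, on opposite sides.

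No ribosomal protein gene was called, but their differences shared a sign. All 43 tested cytosolic ribosomal protein genes had a positive difference over 3 replicates, from 0.14 to 0.64 with a median of 0.42, where 50.8% of all genes tested were positive. The pair medians were 0.93, 0.08 and 0.29, so replicate 1 contributed most. At an unadjusted p under 0.05, 10 of the 43 were higher over 3 replicates, beside 3.23% of all genes, and 22 of the 43 in replicates 2 and 3, beside 6.04%, while 0 were called in either. Rps19, a protein of the small subunit, was at 242, 215 and 246 CPM in WT and 478, 250 and 320 CPM in KO, so all KO libraries lay above the WT libraries, replicate 2 by little. Its difference was 0.53 ± 0.19 over 3 replicates and 0.31 ± 0.08 in replicates 2 and 3, with an edgeR adjusted p of 0.183 in the latter. Ribosomal protein genes have many processed copies in the genome, so their counts are uncertain.

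Nuclear genes of the respiratory chain had the same direction. A positive difference was found for 38 of 40, beside 50.8% of all genes, with a median of 0.36 over 3 replicates and 0.12 in replicates 2 and 3, and pair medians of 0.87, 0.05 and 0.20. Of the 40, 7 were higher at an unadjusted p under 0.05 over 3 replicates, beside 3.23% of all genes, and 10 in replicates 2 and 3, beside 6.04%, with 0 called. The 12 higher genes with the smallest p over 3 replicates among those without overlap also held Cox14, an assembly factor of cytochrome oxidase, Snrpd1 and Sf3b6 of the spliceosome, and the thiol redox proteins Prdx1 and Txndc17. Their differences over 3 replicates were 0.60, 0.54, 0.41, 0.52 and 0.67. None of these 5 was called in replicates 2 and 3, where the differences were 0.47, 0.36, 0.35, 0.40 and 0.42. Gabarapl1, an ATG8 protein of autophagosomes, and Chst11, a chondroitin sulphotransferase, were higher by 0.68 and 0.61 over 3 replicates, and were not called in replicates 2 and 3 (edgeR adjusted p of 0.166 and 0.0592).

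Genes of DNA replication and mitosis carried their difference in the replicate 1 pair. Of 34 tested, 32 had a positive difference over 3 replicates with a median of 0.43. The pair medians were 1.5, 0.00108 and -0.00261, and in replicates 2 and 3 the list's median was 0.000595. There 3 were higher and 2 lower at an unadjusted p under 0.05, beside 6.04% and 5.33% of all genes, and 0 were called. The germinal centre programme had a median of 0.52 over 3 replicates, 0.08 in replicates 2 and 3, and pair medians of 1.20, 0.12 and 0.18. Of its 18 tested genes, 1, Lmo2, was called in replicates 2 and 3, beside 0.505% of all genes. In each fit 4 of the 18 were higher and 0 lower at an unadjusted p under 0.05. Over all genes 3.23% were higher and 1.43% lower over 3 replicates, and 6.04% and 5.33% in replicates 2 and 3. Fas, the death receptor of activated and germinal centre B cells, was at 4.53, 4.19 and 4.40 CPM in WT and 11.7, 6.33 and 6.61 CPM in KO, and was not called (edgeR adjusted p = 0.356 in replicates 2 and 3). The high replicate 1 value of these lists stands beside the Mki67, neutrophil marker and Rn45s values of that KO library, and their part in it was not tested. Heat shock and handling genes had 13 of 15 positive differences, beside 50.8% of all genes, with a median of 0.17 over 3 replicates and 0.16 in replicates 2 and 3. In each fit 5 were higher at an unadjusted p under 0.05, beside 3.23% and 6.04% of all genes, and 0 were called. Hspe1, the mitochondrial co-chaperonin, was at 40.3, 48.7 and 49.0 CPM in WT and 78.5, 57.8 and 62.1 CPM in KO.

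**Figure D4:**
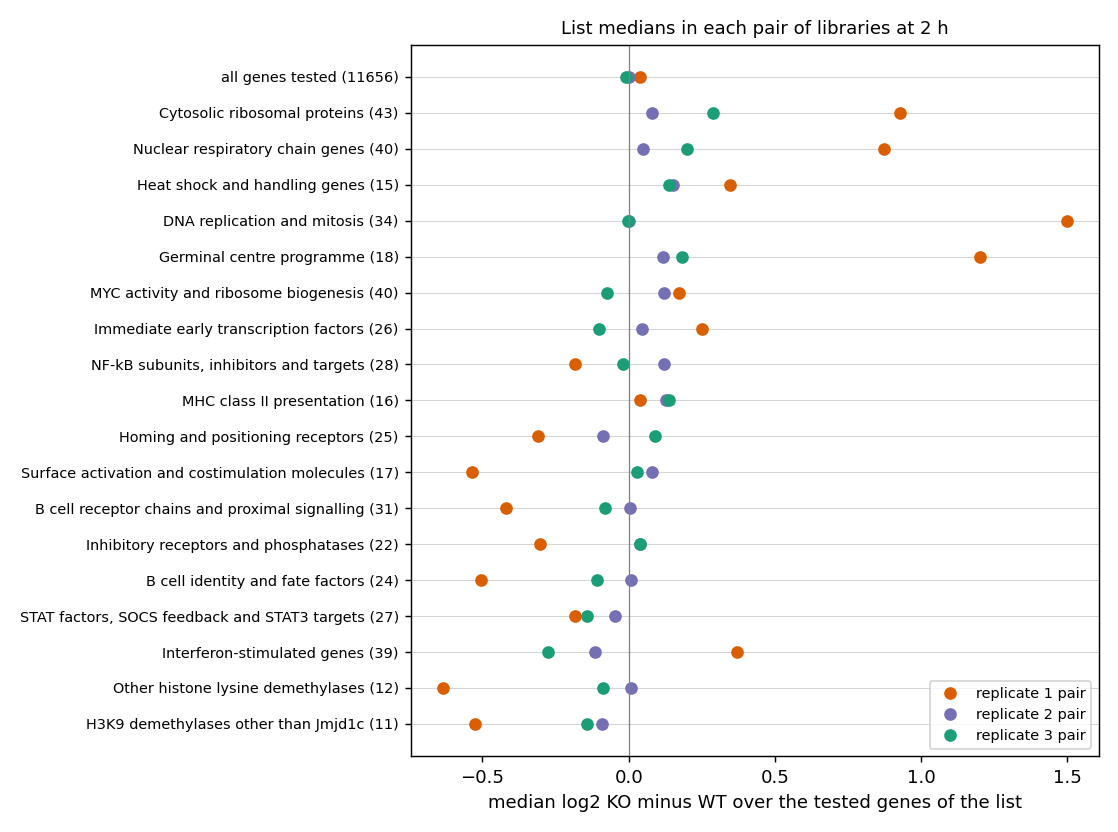
Median difference between KO and WT (log2) of the tested genes of 18 lists and of all genes tested (number in brackets), with 1 point for each pair of libraries at 2 h. The replicate 1 pair lies farthest from 0 in most lists, with 1.5 for DNA replication and mitosis where the other 2 pairs are close to 0, while ribosomal proteins are above 0 in all 3 pairs.

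Of 39 tested interferon-stimulated genes, 12 were lower and 1 higher in replicates 2 and 3 at an unadjusted p under 0.05. These stand beside 5.33% of all genes lower and 6.04% higher. Of the 39, 1 was called, beside 0.505% of all genes. Their median was -0.16 in replicates 2 and 3, and the pair medians were 0.37, -0.11 and -0.28, so replicate 1 went the other way. Parp14, an interferon-induced ADP-ribosyltransferase, was lower in all 3 pairs, by -0.47, -0.34 and -0.43, at 84.0, 97.9 and 110 CPM in WT and 60.6, 77.5 and 81.7 CPM in KO, and was not called (edgeR adjusted p = 0.0778 in replicates 2 and 3). The factors of the STAT pathway had 7 lower and 1 higher of 27 tested at an unadjusted p under 0.05 in replicates 2 and 3. Over all genes 5.33% were lower and 6.04% higher, and 1 gene of the list was called, beside 0.505% of all genes. Il6st, the shared receptor chain gp130 through which interleukin 6 signals, was at 54.9, 63.1 and 58.0 CPM in WT and 31.9, 53.7 and 44.3 CPM in KO, with no overlap. Stat3, which that receptor activates, was at 329, 544 and 302 CPM in WT and 224, 468 and 242 CPM in KO, with overlap between the groups but a lower KO library in each pair. The differences of Il6st and Stat3 were -0.45 and -0.36 over 3 replicates and -0.31 and -0.27 in replicates 2 and 3, with edgeR adjusted p of 0.181 and 0.244.

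The transcription factors of B cell identity showed no call. Bach2, a repressor that holds back plasma cell differentiation, was at 364, 480 and 442 CPM in WT and 118, 397 and 311 CPM in KO, the lowest value being KO replicate 1. Its difference was -0.79 ± 0.27 over 3 replicates and -0.39 ± 0.09 in replicates 2 and 3 (edgeR adjusted p = 0.0975 in the latter). Ets1, which also restrains terminal differentiation, was at 589, 466 and 621 CPM in WT and 268, 351 and 539 CPM in KO. The differences of Ets1 were -0.58 ± 0.22 and -0.30 ± 0.09 in the same order. The list of 24 had 0 genes higher and 2 lower at an unadjusted p under 0.05 over 3 replicates, beside 1.43% of all genes lower, and 0 higher and 3 lower in replicates 2 and 3, beside 5.33%. Its medians were -0.20 and -0.06. Integrin Itga4 was at 211, 160 and 204 CPM in WT and 140, 128 and 168 CPM in KO, and the pro-apoptotic Bcl2l11 (BIM) at 162, 254 and 196 CPM in WT and 102, 192 and 167 CPM in KO. Both were lower in the KO library of each pair, and neither was called (edgeR adjusted p of 0.183 and 0.182 in replicates 2 and 3). Scd1, a desaturase related to Scd2, was lower in all 3 pairs, at 971, 1192 and 1102 CPM in WT and 404, 941 and 839 CPM in KO, with an edgeR adjusted p of 0.132 in replicates 2 and 3.

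Chromatin enzymes related to JMJD1C showed no call. Of 11 tested demethylases of H3K9 other than Jmjd1c, 0 were called in either fit. A negative difference over 3 replicates was found for 9, where 50.8% of all genes tested were positive. The list's median was -0.16 over 3 replicates and -0.09 in replicates 2 and 3. The pair medians were -0.52, -0.09 and -0.14. Kdm7a had the smallest p, at 152, 122 and 143 CPM in WT and 66.2, 102 and 123 CPM in KO, and its edgeR adjusted p in replicates 2 and 3 was 0.289. Among 13 H3K9 methyltransferases and HP1 readers, 0 were called and the median was -0.07 over 3 replicates and -0.08 in replicates 2 and 3.

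Calls in the lists at the centre of the anti-IgM response are read against the 0.505% of all genes called in replicates 2 and 3. The 28 NF-kB subunits, inhibitors and targets had a median of -0.00153 over 3 replicates and 0.04 in replicates 2 and 3, with Ccl4 the 1 called gene. MYC activity and ribosome biogenesis, with 40 tested genes, had medians of 0.06 and 0.02 and 0 calls. The 31 receptor chains and proximal signalling molecules had medians of -0.10 and -0.04 and 0 calls. Among 22 inhibitory receptors and phosphatases, Fcgr2b was called higher and Inppl1 lower in replicates 2 and 3. MHC class II presentation, with 16 tested genes, had a median of 0.05 over 3 replicates and 0.15 in replicates 2 and 3, where 6 genes were higher at an unadjusted p under 0.05, beside 6.04% of all genes, and 0 were called.

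Markers of other cell types were detected in both genotypes. T cell markers summed to 214 to 292 CPM in WT and 192 to 284 CPM in KO over 12 genes. Of these, 10 had a negative difference over 3 replicates, where 50.8% of all genes tested were positive. The list's median was -0.27 over 3 replicates and -0.39 in replicates 2 and 3. Cd3e, a chain of the T cell receptor complex, was at 3.94, 9.53 and 5.52 CPM in WT and 2.84, 3.65 and 3.58 CPM in KO, and was not called. Erythroid markers summed to 3.42 to 13.4 CPM in WT and 3.74 to 46.4 CPM in KO, and platelet markers to 64.9 to 95.3 CPM and 64.5 to 144 CPM, the highest again in KO replicate 1. All 6 tested erythroid markers had a positive difference over 3 replicates, beside 50.8% of all genes, at levels of at most 11.7 CPM in any library. Their pair medians were 1.79, 1.10 and 1.07. In replicate 3 all 10 measured markers summed to only 3.42 CPM in WT and 3.74 CPM in KO, so low levels lie behind the last median. In replicates 2 and 3 alone 4 were tested, with a median of 0.39. Hba-a1 and Hba-a2 had the same counts and are 1 signal. Gp6, a platelet receptor, was at 0 counts in all 6 libraries. The part of these cells in the differences above was not tested.

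The differences at 2 h were set beside those at 0 h. Of the 60 genes called in replicates 2 and 3 at 2 h, 58 (96.7%) had the same sign at 0 h over 3 replicates, where 65% of all genes did. The 0 h libraries came from the same numbered samples. B3gnt7, Armc9, Gad1 and Jmjd1c differed at 0 h by -0.95, -0.72, -1.06 and -0.56, and Lmo2, Cd69 and Lilrb4 by 0.47, 0.41 and 0.75. Rbl2 differed at 0 h by -0.08, Rgs1 by 0.29 and Cd44 by 0.03. The test of the difference between both times called 0 of 12242 genes in edgeR (0%), with 255 (2.08%) at an unadjusted p under 0.05 and a smallest adjusted p of 0.904, so no gene was shown to differ more at 1 time than at the other. DESeq2 with the same design also called 0.

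Several called genes lie near each other on chromosome 10, which carries Jmjd1c. Of the 60 genes, 8 (13.3%) are on this chromosome, beside 548 of 11220 tested genes with a position (4.88%). Within 20 Mb of Jmjd1c, 6 genes were called and 250 tested genes were placed, beside 0.505% of all genes called. The 6 count Jmjd1c itself and both Lilrb4 and Gp49a, which may be 1 signal. Called genes were placed by symbol or synonym and tested genes by symbol only (94.5% found). The share of 6 called beside 250 tested genes may therefore be too high. The 13.3% and the 4.88% each rest on 1 way of placing genes, but not on the same way. H60b (chr10:22273474-22288849) lies outside that window and near the transcript E030030I06Rik (chr10:22113050-22149270), which was also lower, at 6.56, 10.8 and 10.96 CPM in WT and 2.84, 4.08 and 5.12 CPM in KO. These genes were singled out after their values were seen, and the part of position in the differences was not tested.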

How the data were processed

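STAR and the build mm10 are named in the submitters' processing notes. The version, counting tool, annotation, strand setting and treatment of multi-mapping reads were not given in the sources used here, and overlapping, antisense and near-identical genes cannot be told apart. Polyadenylated RNA was selected and libraries made with a NEBNext Ultra kit, per the labels' protocols. The files as deposited held unnormalized counts for 24046 gene symbols each, from which CPM values were computed here with TMM factors. Genes passing filterByExpr were tested with edgeR 4.0.16 (R 4.3.3), by a two-sided quasi-likelihood test with the replicate number as block, over the 6 libraries at 2 h and over the 4 libraries of replicates 2 and 3. Genes were called at a Benjamini-Hochberg adjusted p under 0.05. SEs derive from the F statistic, whose spread is moderated over all genes. All 12 libraries were used for the difference at 0 h and for the test between times, with replicate within time as block, and for the WT response, with 1 mean per group.

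The numbers pair the samples, since the labels give them as a shared batch. Deviations from the group means correlated, across genes, by 0.697, 0.315 and 0.884 for the same number and by -0.752 to 0.32 for different numbers. The value of 0.32, for WT replicate 2 with KO replicate 1, was not below the 0.315 within replicate 2. With 3 libraries per group the deviations of a gene sum to 0, so these correlations constrain each other and do not test the pairing. No 2 libraries of a group agreed within sampling noise. Genes named were Jmjd1c, the 12 per direction of smallest p over 3 replicates without overlap and with all pairs alike, the 6 per direction called in replicates 2 and 3, and up to 4 members per list, with other members where a list is described. Values of 3 such genes are not reported here. Members and lists were chosen with earlier results of these data known. RefSeq positions (GRCm38.p6, the assembly of mm10) were found by symbol for 94.5% of tested symbols, and for called genes also by synonym. Alternatives used RLE factors, other filters, DESeq2 1.42.0, limma 3.58.1 and left-out replicates. The fits were tested on simulated counts with the same dispersion for every gene and the same mean composition in every library. Such a test does not cover libraries as unlike in Rn45s as those at 2 h.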

Additional observations from a re-analysis of the deposited data

How the results depend on the processing

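Over all 3 replicates, 0 genes were called in edgeR without the replicate block, with all 12 libraries under either block, with RLE factors, with a filter of 1 CPM, without the Rn45s row and, as an alternative added after seeing the data, with a robust prior. Without a filter 2 genes were called (B3gnt7 and Fst, the latter named after its values were seen), with DESeq2 and the replicate block 2, with DESeq2 and no replicate block 0, and with limma-voom quality weights 57, of which 42 were among the 60 genes called in replicates 2 and 3. Leaving out 1 replicate gave 8 to 81 calls: 60 without replicate 1, 81 without replicate 2 (64 higher, and 10 of the 81 among the 60) and 8 without replicate 3. The 60 calls of replicates 2 and 3 became 0 with no replicate block, 121 with RLE factors, 275 without a filter, 24 with DESeq2 (22 shared) and 16 in the 10-library fit (all 16 shared). They were 55 without the Rn45s row, 59 with a robust prior and 44 with limma-voom, the last 2 added after seeing the data. Jmjd1c was called with limma-voom (-0.46, adjusted p = 0.0457) and its difference ranged from -0.54 to -0.45 when 1 replicate was left out. Of 55 named genes, 2 changed sign in an alternative, both without replicate 2: Rab6b (-0.0059, against 4.345 without replicate 1) and Fosl2 (0.0745, against -0.715 without replicate 1). The cause of these changes was not tested. The test between times called 0 genes in all its alternatives, including those without 1 replicate and, added after seeing the data, without the 2 h libraries of replicate 1. Depth limits low genes such as Rab6b most in KO replicate 1, where 3 counts were 0.945 CPM.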
